A study of Rattus norvegicus with 30 samples.

Results

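Rat liver cells that had been exposed to dioctyl phthalate for 48 h were compared between the higher and the lower dose, 1000 against 250 µM. The comparison used 10 of the 30 arrays of the study, 5 per dose, chosen by the dose and time in their titles, and all 10528 genes that passed the low-signal limit. The cells were primary hepatocytes of male Sprague Dawley rats, bought frozen, thawed, plated on collagen under a Matrigel overlay, and dosed on day 3 from stocks made in 1% DMSO. The other 20 arrays came from 1000 µM at 24 h, 250 µM at 24 h, and vehicle (0 µM) at 48 h and at 24 h, with 5 arrays per group. Each array was 1 well, which the labels call a separate culture. The sources used here do not state the number of animals or vials behind the wells, so the p-values measure the spread between wells, which may be technical. Wells were inspected for dying cells before RNA was taken, with an outcome that those sources do not state.

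Phthalate plasticisers are known in rodents as peroxisome proliferators. Their acids activate PPARα, a nuclear receptor that pairs with RXR on DNA and switches on genes for fatty acid binding, activation and oxidation in peroxisomes, mitochondria and the endoplasmic reticulum. Liver fatty acid-binding protein (Fabp1), the acyl-CoA thioesterase Acot1 and the fatty acid hydroxylase Cyp4a1 are classical members of that programme. The question here was whether the higher dose moved any gene beyond where the lower dose had already taken it.

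The 5 arrays at 1000 µM correlated with each other at 0.978 to 0.985 and the 5 at 250 µM at 0.979 to 0.982 over the tested genes. Arrays of different dose correlated at 0.976 to 0.985, so arrays were about as alike across the doses as within a dose. The array median of log2 signal averaged 8.60 ± 0.10 at 1000 µM and 8.56 ± 0.07 at 250 µM (SD, n = 5 each), and the exact two-sided permutation test gave p = 0.556 (0.659 after adjustment over the 3 quality measures). The log2 ratio of 3′ to 5′ beta-actin signal, which rises when RNA is shortened, averaged 1.30 ± 0.14 at 1000 µM and 1.15 ± 0.16 at 250 µM (exact permutation p = 0.167, adjusted 0.5). In vehicle at 48 h it averaged 1.72, higher than in either dose. Hepatocyte markers were strongly present, and albumin (Alb) had a mean log2 level of 15.93 at 1000 µM and 16.03 at 250 µM.

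The higher dose differed little from the lower dose at 48 h. In the limma fit over all 30 arrays, 7 of 10528 genes (0.0665%) passed a Benjamini-Hochberg adjusted p of 0.05. At 1000 µM 4 rose (0.0380%) and 3 fell (0.0285%) relative to 250 µM. After centring the array medians 1 rose and 3 fell, and after quantile normalization 7 rose and 3 fell. Without adjustment 1297 genes (12.3%) had p under 0.05, of which 755 were higher at 1000 µM (7.17%) and 542 lower (5.15%). The median difference over all tested genes was 0.02 on the log2 scale. Against vehicle from the same fit, 3132 genes (29.7%) changed at 1000 µM, 11.5% higher and 18.3% lower, and 4342 (41.2%) at 250 µM, 15.2% higher and 26% lower. These comparisons share arrays with the dose step and with each other.

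The limits on an undetected dose step were narrow for most genes. The 95% interval of the difference lay within 1.5-fold in either direction for 8573 genes (81.4%) and within 2-fold for 10145 (96.4%). A difference of at least 2-fold was estimated for 10 genes (0.0950%), and 7 of these had a group mean under the low-signal limit of 7.88. Of the 10, 1 passed the test.

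**Figure D1:**
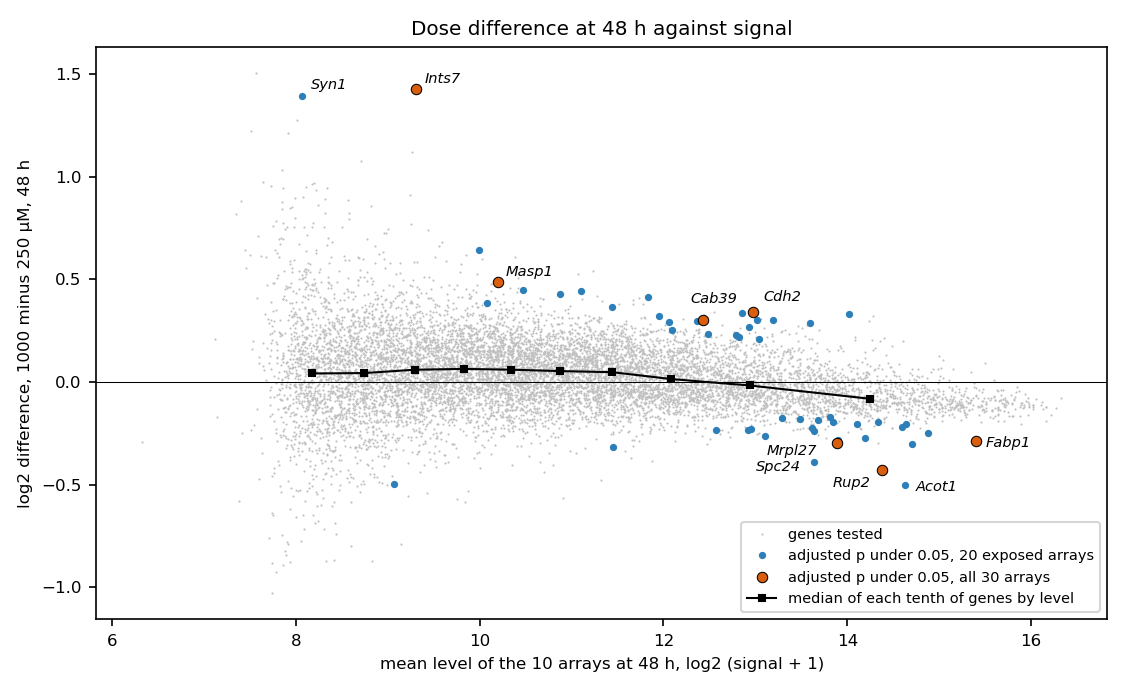
Each point is a gene, with its mean log2 level over the 10 arrays at 48 h on the x axis and its log2 difference, 1000 minus 250 µM, on the y axis. Orange points passed over all 30 arrays (7 genes), blue points passed only over the 20 exposed arrays, and black squares give the medians of 10 equal groups of genes by level. The squares lie between 0.04 and 0.06 in the dimmer 7 groups and at -0.08 in the brightest.

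The dose difference varied with signal. When the tested genes were split by mean level into 10 groups of equal size, the median difference was between 0.04 and 0.06 in the 7 dimmer groups, 0.01 and -0.02 in the next, and -0.08 in the brightest. At 24 h these medians lay between -0.02 and 0.01. Quantile normalization, which gives every array the same distribution of signals, left medians between -0.01 and 0.01 at 48 h. The list medians of abundant genes, and several of the abundant genes described singly from the all-array fit, are given below with their value under quantile normalization. For others described below, the difference at 48 h under that normalization was -0.46 for Acot1, 0.35 for Cdh2, 0.30 for Cab39 and 0.36 for Cdkn1a. The value for Spc24 is not given. Whether the trend comes from the cells or from the arrays was not tested.

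Fabp1 is the most abundant fatty acid carrier of the hepatocyte cytosol. Of 39 tested PPARα-regulated genes of lipid handling, it was the 1 that passed over all arrays, with 1 probe set per gene. Over the 20 exposed arrays 5 of the 39 were lower, among them Fabp1 and Acot1. A probe set of Pdk4 that was not used in that test differed by -0.51 ± 0.10, as given below. The log2 levels of Fabp1 were 15.31, 15.13, 15.38, 15.20 and 15.24 at 1000 µM, against 15.52, 15.45, 15.63, 15.53 and 15.57 at 250 µM. The groups did not overlap, with all arrays at 1000 µM lower. Fabp1 fell by 0.29 ± 0.05 on the log2 scale (difference ± SE, adjusted p = 0.0116 by limma). Vehicle arrays at 48 h averaged 12.90 ± 0.04 (SD, n = 5), so both doses stood far above vehicle and the higher dose slightly less so. After quantile normalization the difference was -0.18 with an adjusted p of 0.0951, which no longer passed. At 24 h the difference was -0.04, with a 95% interval of -0.15 to 0.06.

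The 250 bases before the RefSeq start of Fabp1, chr4:104749090-104749339 on the plus strand of GRCr8, are shown because Fabp1 was the PPARα-regulated gene that passed and because its promoter holds the type of site that the receptor binds. Capitals mark a match to AGGNCA, then any base, then AGGNCA, the direct repeat that PPARα and RXR recognise, read here from the minus strand.
Fabp1: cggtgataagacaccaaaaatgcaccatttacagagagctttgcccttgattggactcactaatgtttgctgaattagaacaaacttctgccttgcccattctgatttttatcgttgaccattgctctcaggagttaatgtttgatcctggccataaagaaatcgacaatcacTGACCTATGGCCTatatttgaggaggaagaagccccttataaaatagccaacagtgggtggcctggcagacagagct
The match runs from base -77 to base -65 counted from the start. Searched on both strands over windows of the same length, the pattern was present in 123 of 33469 RefSeq promoters (0.368%). Among the 7 changed genes 6 had a promoter in the table and 1 of them, Fabp1, held a match. Fabp1 was also the only match among 37 promoters of PPARα-regulated lipid handling and among 47 of the genes called over the 20 exposed arrays. The pattern was in 0 of 17 promoters of peroxisomal beta-oxidation and 0 of 19 of mitochondrial beta-oxidation and ketogenesis. A match to these letters is a description of the sequence and was not tested against the dose step.

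Acot1, a cytosolic enzyme that splits fatty acyl-CoA and among the genes most strongly raised by peroxisome proliferators in rat liver, separated the doses clearly on the arrays. Its log2 levels were 14.42, 14.29, 14.53, 14.26 and 14.40 at 1000 µM, against 14.82, 14.92, 14.97, 14.84 and 14.88 at 250 µM. No array at 1000 µM reached the lowest array at 250 µM. The difference was -0.50 ± 0.24 over all 30 arrays (adjusted p = 0.389 by limma) and did not pass. The shared error of that fit includes the vehicle arrays at 48 h, where Acot1 ran from 6.87 to 9.31 with an SD of 0.96 (n = 5), while the SD was 0.11 at 1000 µM and 0.06 at 250 µM. Fitted over the 20 exposed arrays, the same difference had an SE of 0.05 and an adjusted p of 4.91e-06. Some of the other thioesterases lie beside Acot1 in the genome and can share probe sequence with it, which was not tested.

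Spc24, a subunit of the NDC80 complex that ties kinetochores to microtubules, showed the same pattern. Its log2 levels were 13.47, 13.44, 13.48, 13.40 and 13.42 at 1000 µM, against 13.74, 13.86, 13.87, 13.90 and 13.79 at 250 µM. The groups were apart by more than the range within either. The difference was -0.39 ± 0.09 over all 30 arrays (adjusted p = 0.0981 by limma) and -0.39 ± 0.04 over the 20 exposed arrays (adjusted p = 4.91e-06). In vehicle at 48 h the mean was 10.19 ± 0.24 (SD, n = 5), far under both doses.

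Rup2, a rat gene named for a protein found in urine, fell most reliably. Its log2 levels were 14.12, 14.16, 14.26, 14.11 and 14.17 at 1000 µM, against 14.51, 14.56, 14.63, 14.71 and 14.56 at 250 µM. The arrays did not overlap, and Rup2 fell by 0.43 ± 0.06 on the log2 scale (adjusted p = 0.00185 by limma). On the linear scale it fell by 25.8%. It passed under all 21 alternatives run, with a difference of -0.38 after quantile normalization. Vehicle averaged 14.47 at 48 h, so the level at 1000 µM lay under vehicle (difference -0.30, adjusted p = 0.000468 by limma) and that at 250 µM was 0.13 above it (adjusted p = 0.115 by limma). The other 3 probe sets of Rup2 differed by -0.57, -0.37 and -0.13, and all 3 are marked by the maker as able to hybridise with other transcripts.

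Mrpl27, a protein of the large subunit of the mitochondrial ribosome, was the other gene that fell. Its log2 levels were 13.82, 13.54, 13.82, 13.81 and 13.72 at 1000 µM, against 14.02, 14.002, 14.11, 14.05 and 14.01 at 250 µM. All arrays at 1000 µM were lower, with 1 array at 13.54 lowest, and Mrpl27 fell by 0.30 ± 0.05 on the log2 scale (adjusted p = 0.0116 by limma). After quantile normalization the difference was -0.24 and passed. The vehicle mean of 13.70 at 48 h was close to that at 1000 µM.

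Of the 4 genes that rose, Ints7 showed the largest difference. It encodes a subunit of the Integrator complex, which trims small nuclear RNAs and ends the transcription of short transcripts. Its log2 levels were 10.22, 10.39, 9.98, 9.50 and 10.04 at 1000 µM, against 9.002, 9.40, 7.84, 9.03 and 7.71 at 250 µM. The groups did not overlap, but the arrays at 250 µM spread widely and 2 of them lay under the low-signal limit. Relative to 250 µM, Ints7 rose by 1.43 ± 0.26 on the log2 scale, 2.69-fold (adjusted p = 0.0149 by limma). Vehicle averaged 9.83 at 48 h, close to 1000 µM (difference 0.19, adjusted p = 0.632 by limma). The level at 250 µM lay under vehicle (difference -1.23, adjusted p = 0.000286 by limma). The other probe set of Ints7, close to the low-signal limit at both doses, differed by 0.09.

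Masp1, a serine protease that starts the lectin pathway of complement, had log2 levels of 10.22, 10.52, 10.41, 10.57 and 10.46 at 1000 µM, against 9.95, 10.11, 9.91, 10.01 and 9.78 at 250 µM. All arrays at 1000 µM were higher, and Masp1 rose by 0.49 ± 0.10 on the log2 scale (adjusted p = 0.0408 by limma). The adjusted p was 0.0581 after quantile normalization, and 0.0588 with the run of 6 array numbers in the titles as a block. Another probe set of the gene differed by -0.02, and the remaining one was under the low-signal limit at both doses. The vehicle mean at 48 h was 11.02, above both doses.

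Cdh2, the N-cadherin that joins hepatocytes at adherens junctions, had log2 levels of 13.27, 13.15, 12.99, 13.20 and 13.09 at 1000 µM, against 12.94, 12.85, 12.75, 12.68 and 12.76 at 250 µM. The groups were apart, and Cdh2 rose by 0.34 ± 0.06 on the log2 scale (adjusted p = 0.0196 by limma). Its second probe set of similar signal differed by 0.18. In vehicle at 48 h Cdh2 averaged 13.98, so both doses were below vehicle and the higher dose less so.

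Cab39, a scaffold that helps the kinase LKB1 into its active form, had log2 levels of 12.68, 12.68, 12.28, 12.58 and 12.70 at 1000 µM, against 12.29, 12.23, 12.23, 12.27 and 12.37 at 250 µM. The groups overlapped at 1 array of 1000 µM. Cab39 rose by 0.30 ± 0.06 on the log2 scale (adjusted p = 0.0435 by limma), a call lost under 14 of 21 alternatives, among them the block by array number (adjusted p = 0.057). Its other probe set, of similar signal, differed by 0.16. It was named after its values were seen. Of the 7 changed genes, 6 had a mean at 1000 µM nearer to vehicle than the mean at 250 µM, and Rup2 did not. That count shares the 250 µM arrays with the test that chose the genes, and the same share over all tested genes is not given.

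**Figure D2:**
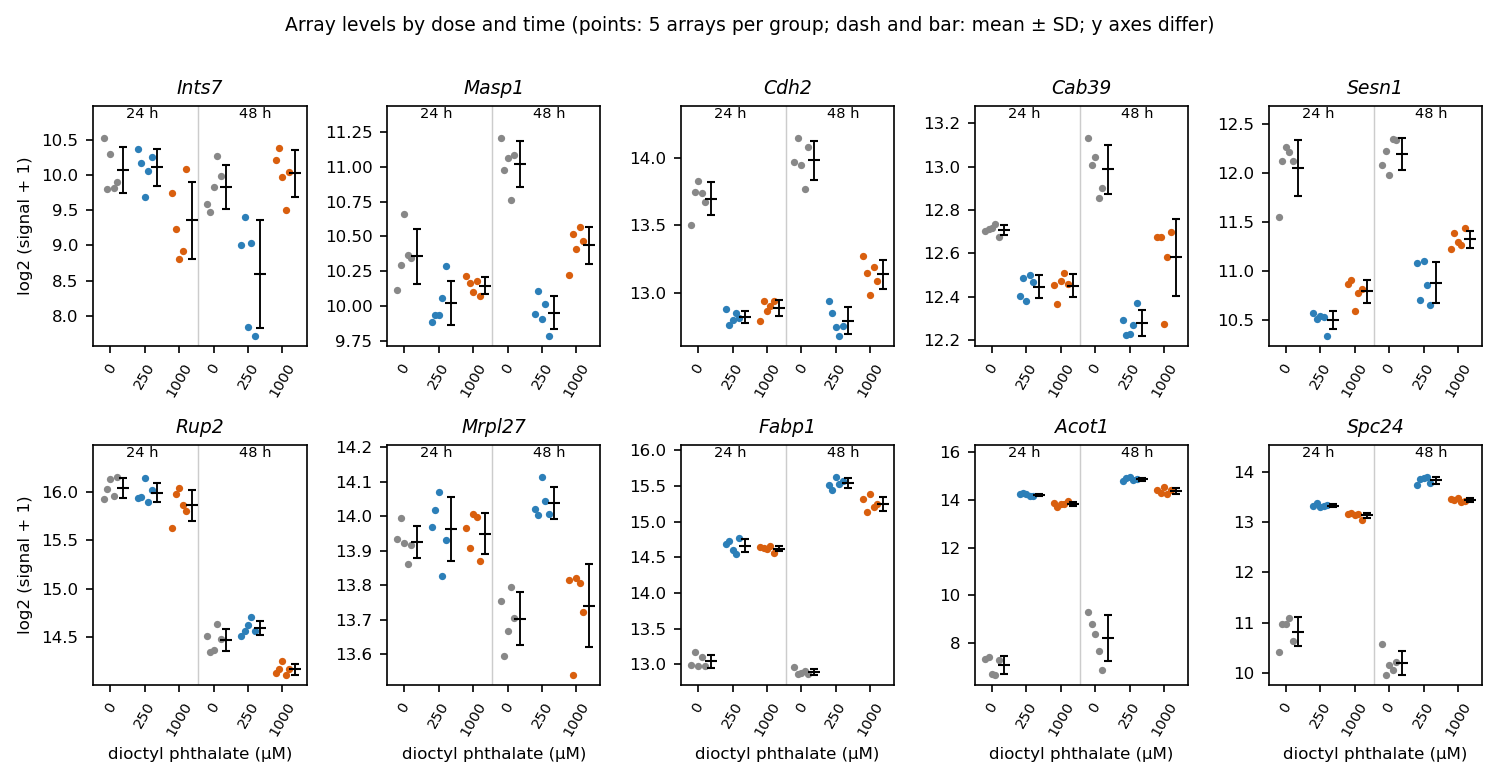
Each point is an array, with its log2 (signal + 1) on the y axis and dose in µM on the x axis, 24 h left and 48 h right in each panel. Black dashes and bars are means and SDs of 5 arrays. At 48 h the points at 1000 µM lie below those at 250 µM for Rup2, Mrpl27, Fabp1, Acot1 and Spc24, and above them for Ints7, Masp1, Cdh2 and Sesn1, while Cab39 overlaps at 1 array.

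The shared spread of the fit was larger with the vehicle wells in it. The median over genes of the within-group SD was 0.15 at 1000 µM, 0.15 at 250 µM and 0.18 in vehicle at 48 h. The dose step was therefore also fitted over the 20 exposed arrays alone, an alternative chosen after seeing the data. In that fit 52 genes passed (0.494%), 26 higher at 1000 µM (0.247%) and 26 lower (0.247%), and the 7 above were among them. It used signals without quantile normalization, so the trend of the dose difference with signal was not removed. How far that trend enters the 52 genes was not tested. The differences ran from 0.17 to 1.43 in size, and 48 of the 52 were under 0.5. The arrays of the doses did not overlap for 22 of the lower and 15 of the higher genes, against 1.75% lower and 1.14% higher over all tested genes. The 52 genes were chosen by a test on the same arrays, which favours such separation. Fitted over the 10 compared arrays alone, Acot1, Rup2 and Spc24 passed. With arrays weighted by their agreement with their group, 409 genes passed.

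Among the 26 lower genes, 6 belonged to the lists of fatty acid oxidation and PPARα-regulated lipid handling. They were 1 of 18 tested in peroxisomal beta-oxidation, 0 of 23 in mitochondrial beta-oxidation and 5 of 39 in PPARα-regulated lipid handling, where 0.247% of all tested genes were lower. These were Acot1, Fabp1, and 4 others. Apart from the genes described above and Mpc2 and Serpina6 below, those named from these 52 were named after their values were seen. Hilpda, which holds back the triglyceride lipase of lipid droplets, differed by -0.28 ± 0.06 (adjusted p = 0.0269 by limma), and ran from 13.71 to 13.89 at 1000 µM, against 13.87 to 14.19 at 250 µM. G0s2, an inhibitor of the same lipase, differed by -0.27 ± 0.05 (adjusted p = 0.0207 by limma) and ran from 13.98 to 14.16 at 1000 µM, against 14.23 to 14.40 at 250 µM. The droplet protein Cidea differed by -0.22 and the peroxisomal thioesterase Acot8 by -0.24, each with an SE of 0.05. All 6 were higher than vehicle at both doses, by 2.00 at 1000 µM and 2.29 at 250 µM for Hilpda, and by 1.25 at 1000 µM and 1.52 at 250 µM for G0s2, on the log2 scale.

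Other lower genes had varied roles. Mpc2, a subunit of the mitochondrial pyruvate carrier, differed by -0.25 ± 0.04 (adjusted p = 0.0116 by limma over the exposed arrays), and ran from 14.68 to 14.87 at 1000 µM, against 14.95 to 15.06 at 250 µM. Serpina6, the corticosteroid-binding globulin of plasma, differed by -0.49 ± 0.11 (adjusted p = 0.0398 by limma). Its log2 level ran from 8.53 to 8.95 at 1000 µM, against 9.09 to 9.61 at 250 µM, and averaged 8.85 in vehicle. Insig2, which retains the sterol sensor of SREBP in the endoplasmic reticulum, differed by -0.30, Pon1, a lactonase carried on HDL, by -0.26, and Ddit4, an inhibitor of mTORC1, by -0.23. Mrpl43, a second protein of the mitochondrial ribosome, differed by -0.18, and the proteasome subunit Psma2 by -0.21.

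Of the 26 higher genes, Vim and Tpm4 belonged to the list of culture dedifferentiation and cytoskeleton, of which 31 genes were tested. Over all tested genes 0.247% were higher in that fit. Of the 31, 19 were above 0 and 12 below, with a median of 0.03, against 0.02 over all tested genes. Vim, the intermediate filament vimentin, differed by 0.29 ± 0.06 (adjusted p = 0.0308 by limma over the exposed arrays) and ran from 12.11 to 12.32 at 1000 µM, against 11.86 to 11.97 at 250 µM. The tropomyosin Tpm4 differed by 0.23. Among others, outside that list, fibronectin (Fn1) differed by 0.29, the laminin chain Lamc1 by 0.45 and desmoplakin (Dsp), which anchors filaments at desmosomes, by 0.30. All 5 were below vehicle at both doses, Vim by -1.41 at 1000 µM and -1.70 at 250 µM and Fn1 by -1.22 at 1000 µM and -1.51 at 250 µM. Sesn1 and Ccng1, both known targets of p53, differed by 0.44 ± 0.09 and 0.22 ± 0.04 (adjusted p = 0.0268 for each by limma). They were 2 of 18 tested genes of the p53 list, of which 0 were lower in that fit. Of the 18, 8 were above 0 and 10 below, with a median of -0.01, so the list did not rise as a group. Over all arrays 6 of them were higher and 2 lower with an unadjusted p under 0.05. At that threshold 7.17% of all tested genes were higher and 5.15% lower. Sesn1 had log2 levels of 11.22, 11.38, 11.29, 11.26 and 11.44 at 1000 µM, against 11.08, 10.70, 11.10, 10.86 and 10.65 at 250 µM, and its second, dimmer probe set differed by -0.09. Cyp2c11, a cytochrome P450 typical of male rat liver, differed by 0.30 ± 0.07 (adjusted p = 0.0425 by limma). The synapsin Syn1 differed by 1.39, but its mean at 250 µM, 7.38, was under the low-signal limit, so that size is not read.

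**Figure D3:**
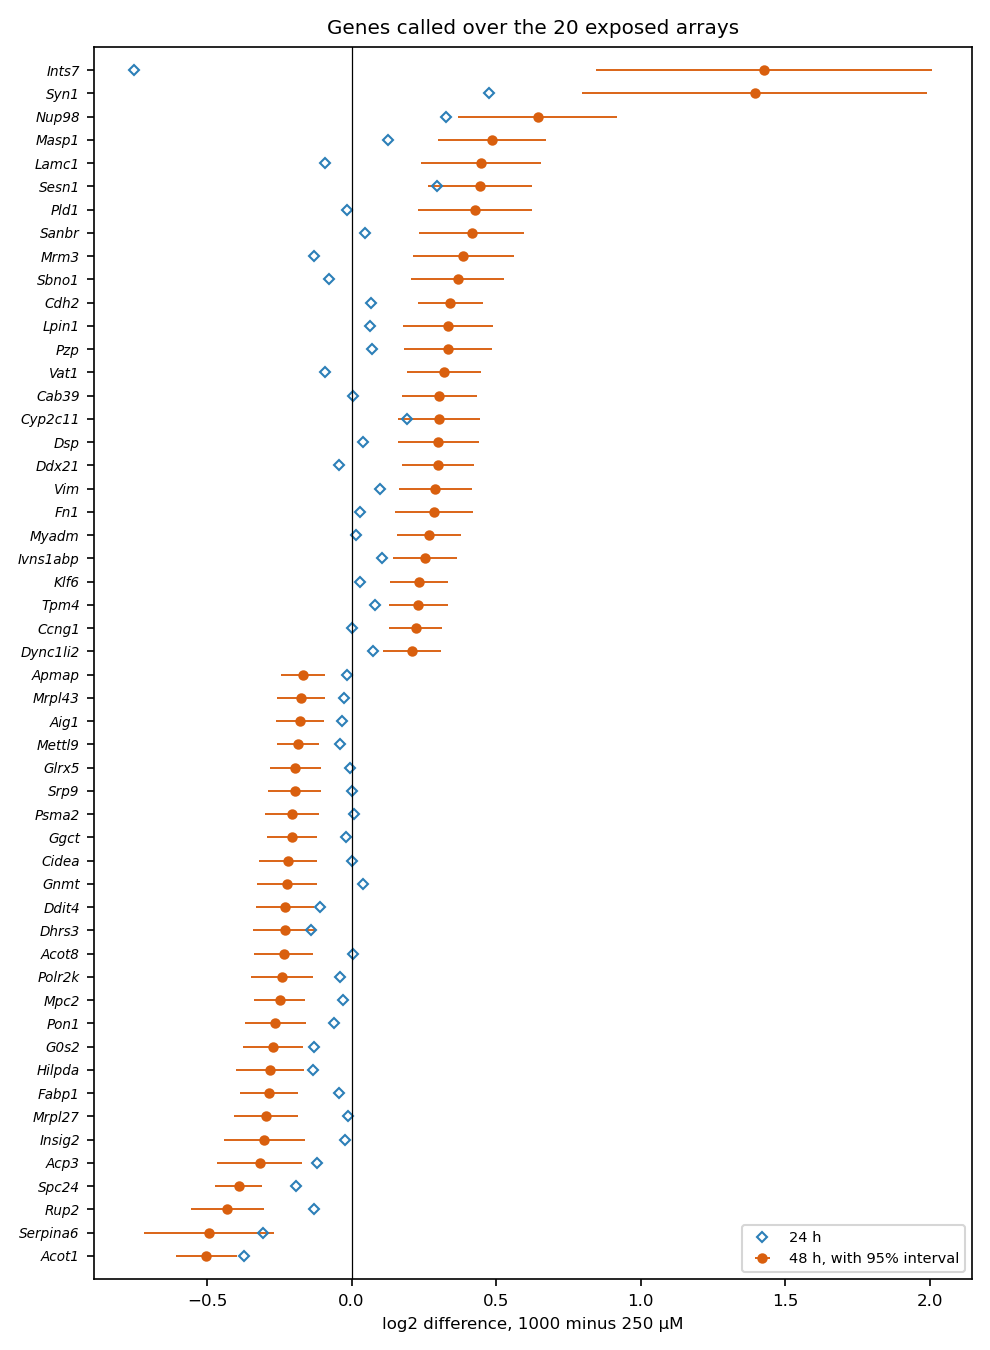
Each row is a gene that passed over the 20 exposed arrays (52 genes). The x axis is the log2 difference, 1000 minus 250 µM, with filled circles and 95% intervals for 48 h and open diamonds for the same difference at 24 h. Most diamonds lie nearer 0 than the circles, and that of Ints7, at -0.75, lies on the other side of 0.

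The wells of 24 h gave a view of these genes that shared no array with the 48 h dose step. Of the 26 lower genes, 17 were higher at 250 µM than in vehicle at 24 h by the fit over all arrays, 1 was lower and 8 did not pass. Of the 26 higher genes, 17 were lower at 250 µM than in vehicle at 24 h, 0 were higher and 9 did not pass. Over all tested genes 2030 (19.3%) changed in that comparison, 8.31% higher and 11% lower. The 24 h arrays entered the choice of the 52 genes through the shared spread only.

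The same was seen when genes were taken by their response at 24 h, without regard to the dose step. This grouping was chosen after seeing the data and carries no test. At 24 h and 250 µM, 106 genes had risen at least 2-fold over vehicle. At 48 h, 89 of them were lower at 1000 than at 250 µM, with a median difference of -0.15. A further 54 genes had fallen at least 2-fold, and 43 of these were higher at 1000 µM at 48 h, with a median difference of 0.24. For comparison, 4682 of all tested genes (44.5%) were lower at 1000 µM, with a median of 0.02. Among the 875 genes that rose by any amount 580 were lower at 1000 µM (median -0.05), and among the 1155 that fell 766 were higher (median 0.05).

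These medians kept their sign with each of the 10 arrays left out in turn, between -0.16 and -0.13 for the 106 genes and between 0.19 and 0.25 for the 54. After quantile normalization they were -0.09 and 0.19. The array medians of the 54 genes ran from 10.22 to 10.37 at 1000 µM, against 10.06 to 10.20 at 250 µM and 11.07 to 11.33 in vehicle at 48 h, so the doses did not overlap. The array medians of the 106 genes ran from 12.38 to 12.70 at 1000 µM, against 12.47 to 12.71 at 250 µM and 10.74 to 11.09 in vehicle, so the doses overlapped. Of the 106 genes 1 fell at 48 h by the fit over all arrays, and 8 were lower and 0 higher over the exposed arrays. Of the 54 genes 0 passed over all arrays (17 had an unadjusted p under 0.05, all higher), and 4 were higher and 0 lower over the exposed arrays. Over all tested genes, 0.0285% fell and 0.0380% rose by the fit over all arrays, and 7.17% were higher with an unadjusted p under 0.05. Over the exposed arrays 0.247% of all tested genes were lower and 0.247% higher.

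**Figure D4:**
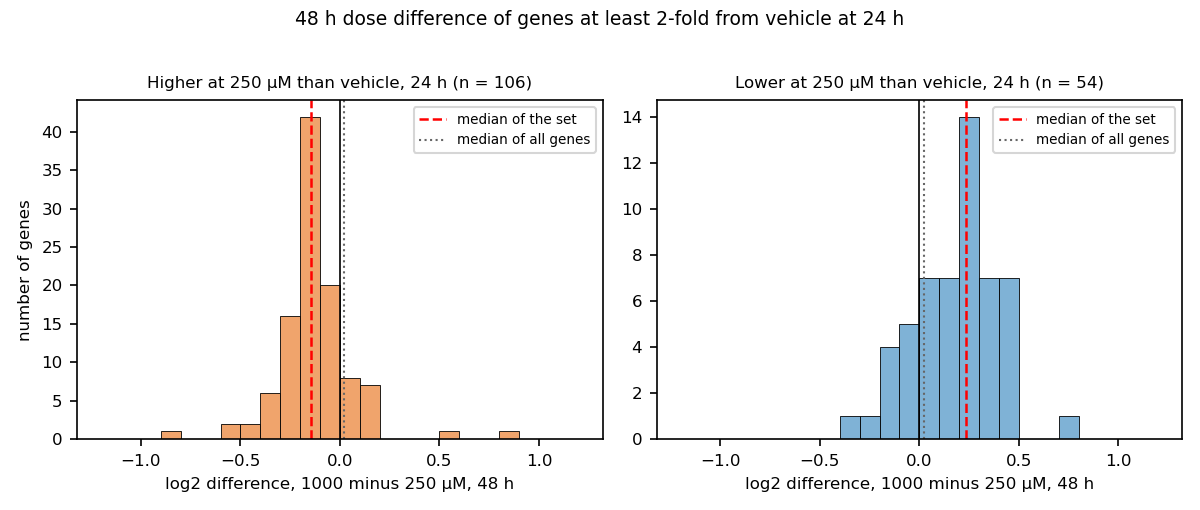
Histograms of the log2 difference, 1000 minus 250 µM at 48 h, for 106 genes at least 2-fold higher at 250 µM than in vehicle at 24 h (left) and 54 genes at least 2-fold lower (right). The y axis counts genes, the dashed line is the median of the set (-0.15 left, 0.24 right) and the dotted line that of all genes (0.02).

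The enzymes of fatty acid breakdown shifted little as groups. Of 18 tested genes of peroxisomal beta-oxidation, 0 passed over all 30 arrays (8 had an unadjusted p under 0.05, all lower, against 5.15% of all tested genes) and 1, Acot8, was lower over the exposed arrays. Their median difference was -0.16, with 17 below 0, and was -0.09 after quantile normalization. Ehhadh, the bifunctional enzyme of that pathway, averaged 14.99 at 1000 µM and 15.13 at 250 µM, a difference of -0.14 with a 95% interval of -0.43 to 0.14, or -0.05 after quantile normalization. Of 23 genes of mitochondrial beta-oxidation and ketogenesis, 0 passed in either fit (6 had an unadjusted p under 0.05, all lower), and the median was -0.12, or -0.06 after quantile normalization. Cpt1a, which admits fatty acids to mitochondria, differed by -0.09 (95% interval -0.39 to 0.20), and Pdk4, a kinase that shuts off pyruvate oxidation, by -0.15 (-0.39 to 0.09). The second probe set of Pdk4 was dimmer but well above the low-signal limit, with means of 11.55 at 1000 µM and 12.06 at 250 µM. It differed by -0.51 ± 0.10 (difference ± SE), a larger fall than in the probe set used. After quantile normalization Cpt1a differed by -0.09 and Pdk4 by -0.08.

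Of 39 tested PPARα-regulated genes of lipid handling, 1 fell over all arrays, against 0.0285% of all tested genes. Over the exposed arrays 5 were lower, against 0.247%. Unadjusted p over all arrays was under 0.05 for 11 lower and 1 higher, against 5.15% lower and 7.17% higher over all tested genes. Of the 39, 30 were below 0, with a median of -0.10 (-0.06 after quantile normalization). Cyp4a1 averaged 15.84 at 1000 µM and 15.94 at 250 µM, a difference of -0.10 (95% interval -0.27 to 0.06), against 13.70 in vehicle. That difference was 0.01 after quantile normalization, with the sign turned. Fgf21, a fasting hormone of liver, differed by -0.07 (-0.28 to 0.15; -0.09 after quantile normalization) and the uncoupling protein Ucp2 by 0.19 (-0.41 to 0.80). The lists were chosen with earlier results of these data known, so their medians are given as a description.

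Lists of abundant housekeeping genes had medians of similar size. The median was -0.11 for 90 subunits of oxidative phosphorylation (83 below 0), -0.11 for 52 cytosolic ribosomal proteins, -0.10 for 37 proteasome subunits and -0.08 for 73 mitochondrial ribosomal proteins. After quantile normalization these were -0.05, -0.01, -0.04 and -0.08. None of these passed over all arrays apart from Mrpl27. Unadjusted p was under 0.05 for 37 lower and 1 higher subunit of oxidative phosphorylation, for 9 lower and 0 higher cytosolic ribosomal proteins, for 12 lower and 0 higher proteasome subunits and for 15 lower and 0 higher mitochondrial ribosomal proteins, against 5.15% lower and 7.17% higher over all tested genes. The 30 hepatocyte markers had a median of -0.08, which was 0.00 after quantile normalization.

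On the higher side, 20 genes of bile acid synthesis and transport had a median of 0.11, with 13 above 0, and 15 clock genes one of 0.13, with 13 above 0. None passed in either fit (5 and 2 had an unadjusted p under 0.05 and were higher, 0 and 1 were lower, where over all tested genes 7.17% were higher and 5.15% lower at that threshold). Cyp7a1, the hydroxylase that sets the pace of bile acid production, averaged 9.15 at 1000 µM and 8.86 at 250 µM, against 10.48 in vehicle, a difference between the doses of 0.28 (95% interval 0.02 to 0.55, adjusted p = 0.37 by limma). Ccn2, a matricellular protein of the culture response, averaged 10.86 at 1000 µM and 10.45 at 250 µM, against 13.60 in vehicle. That difference was 0.41 (0.21 to 0.61, adjusted p = 0.0981 by limma). With the run of 6 array numbers as a block it passed (adjusted p = 0.0174). Cdkn1a, the p53 target that arrests the cell cycle, differed by 0.38 (0.15 to 0.60, adjusted p = 0.171), but its other probe set differed by -0.26.

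Of 44 tested genes of the unfolded protein and integrated stress response and 34 of drug metabolism regulated by CAR and PXR, 0 passed over all arrays (2 and 6 had an unadjusted p under 0.05). Of the 2, 1 was higher and 1 lower, and of the 6, 3 were higher and 3 lower. Over all tested genes 12.3% had an unadjusted p under 0.05. Over the exposed arrays 1 of each passed, Ddit4 and Cyp2c11, given above. Hspa5, the main chaperone of the endoplasmic reticulum, differed by -0.04 (95% interval -0.15 to 0.07) and Ddit3, a transcription factor of the integrated stress response, by -0.16 (-0.34 to 0.01). After quantile normalization these were 0.05 for Hspa5 and -0.19 for Ddit3. Hmox1, which breaks down haem and answers to NRF2, differed by -0.08 (-0.20 to 0.03), or 0.0011 after quantile normalization. Cyp1a1, the AhR target, differed by -0.01 (-0.23 to 0.21) and Cyp3a23-3a1, a cytochrome P450 regulated by PXR, by -0.12 (-0.27 to 0.03). After quantile normalization these were 0.07 for Cyp1a1 and 0.02 for Cyp3a23-3a1. Alb differed by -0.11 (-0.35 to 0.13), and by 0.01 after quantile normalization. The sign of the estimate thus turned for Hspa5, Hmox1, Cyp1a1, Cyp3a23-3a1 and Alb, none of which passed under either scaling. The interleukin-1 decoy receptor Il1r2 averaged 7.76 at 1000 µM and 6.95 at 250 µM, both under the low-signal limit, against 11.07 in vehicle, so no difference between the doses is given.

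The tested markers of other liver cells had median log2 levels from 8.61 (Kupffer cells and leukocytes) to 9.99 (cholangiocytes), against the limit of 7.88. Of 17 markers of Kupffer cells and leukocytes 8 were tested, with 7 below 0 and a median of -0.27. Their summed signal ran from 8729 to 9764 at 1000 µM, against 8669.99 to 10269 at 250 µM, so the doses overlapped. Cd68, a lysosomal protein of macrophages, differed by -0.46 ± 0.19 with an unadjusted p under 0.05, and 0 of the 8 passed in either fit. Of 15 stellate cell markers 8, of 14 endothelial markers 5 and of 10 cholangiocyte markers 3 were tested, with medians of -0.01, -0.01 and -0.01, and 0 passed in either fit. Fewer cells of a type and less RNA per cell cannot be told apart in such wells, and the part of other cells in the dose step was not tested.

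**Figure D5:**
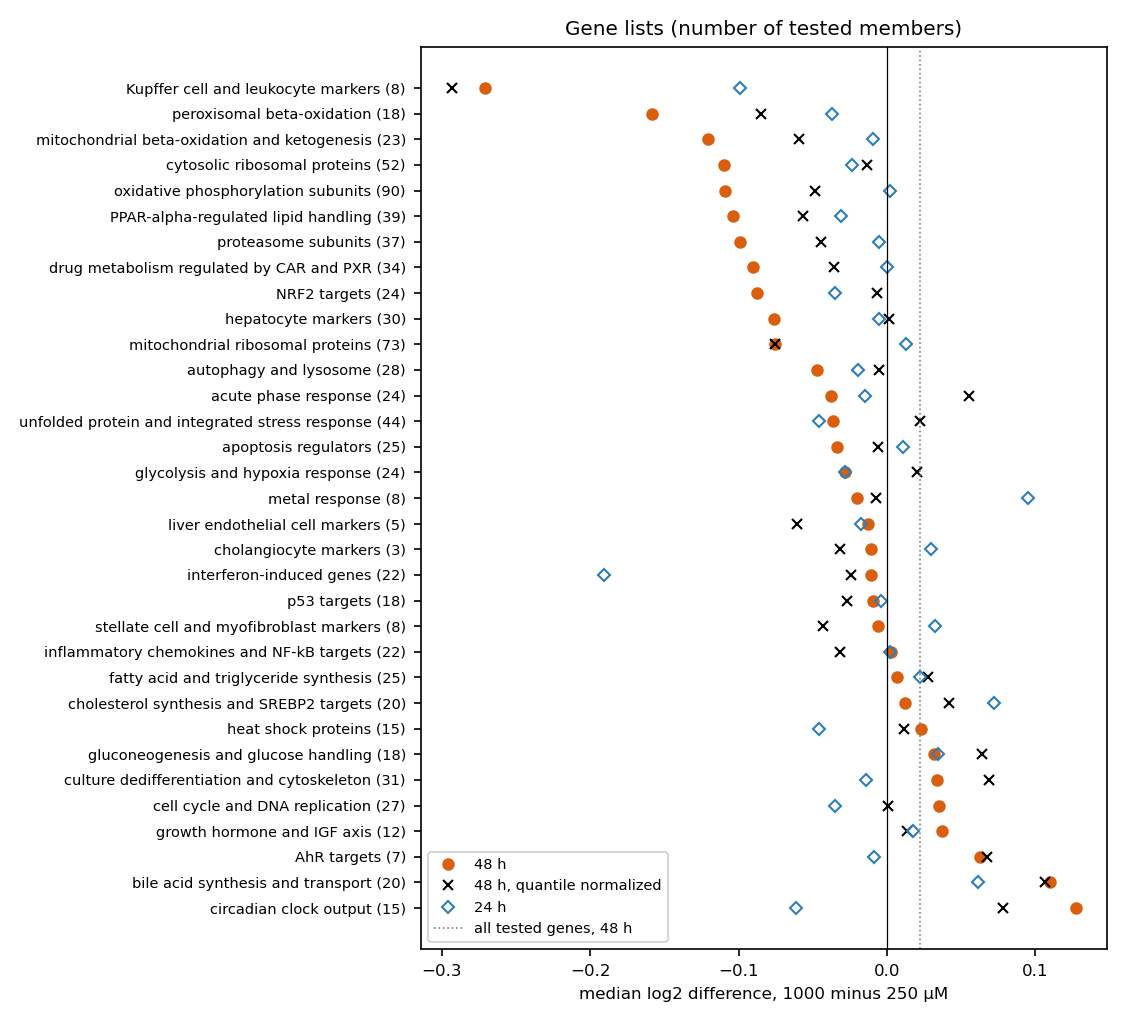
The x axis is the median log2 difference, 1000 minus 250 µM, of the tested members of each list, whose number is in brackets. Filled circles are 48 h, crosses 48 h after quantile normalization and open diamonds 24 h, and the dotted line is the median of all tested genes at 48 h, 0.02. The circles run from -0.27 for Kupffer cell markers to 0.13 for clock genes.

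A day earlier, at 24 h, the same dose step in separate wells changed 2 genes (0.0190%), both lower at 1000 µM, and 335 (3.18%) had an unadjusted p under 0.05, 160 higher (1.52%) and 175 lower (1.66%). Over the exposed arrays 5 genes passed (0.0475%). The 2 genes of the all-array fit, Isg15 and Mx2, belong to the interferon response. Isg15, a ubiquitin-like modifier, had log2 levels of 10.65, 10.91, 11.08, 10.84 and 10.88 at 1000 µM, against 11.77, 11.93, 11.71, 11.35 and 11.39 at 250 µM. The groups did not overlap, and Isg15 fell by 0.76 ± 0.14 (adjusted p = 0.0207 by limma). Mx2, an antiviral GTPase named after its values were seen, fell by 0.88 ± 0.16 (adjusted p = 0.0207). Of 22 interferon-induced genes, 21 were below 0 at 24 h with a median of -0.19, and 12 at 48 h with a median of -0.01. For comparison, 5366 of the 10528 tested genes were below 0 at 24 h, with a median of -0.002.

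The dose difference itself changed with time for 2 genes (0.0190%), Ints7 and Isg15. Without adjustment 768 genes (7.29%) had p under 0.05 in that test, 499 with a higher value at 48 h (4.74%) and 269 with a lower one (2.56%). For Ints7 the log2 levels at 24 h were 9.75, 9.23, 8.81, 8.92 and 10.09 at 1000 µM, against 10.37, 10.17, 9.69, 10.05 and 10.26 at 250 µM. Its difference was therefore -0.75 at 24 h and 1.43 at 48 h, and the change between them was 2.18 ± 0.37 (adjusted p = 0.0171 by limma). For Isg15 the difference was 0.30 at 48 h, after -0.76 at 24 h, a change of 1.06 ± 0.19 (adjusted p = 0.024 by limma). Fitted over the exposed arrays, 0 genes passed this test of change with time (1042 had an unadjusted p under 0.05).

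Few genes had the doses apart on the arrays at both times. All 5 arrays at 1000 µM lay on the same side of all 5 at 250 µM for 304 genes at 48 h (2.89%), 120 higher (1.14%) and 184 lower (1.75%), and for 104 genes at 24 h (0.988%), 46 higher (0.437%) and 58 lower (0.551%). The lists shared 6 genes, all in the same direction, which were 1.97% of those at 48 h and 5.77% of those at 24 h. Acot1, Spc24, Ddit4 and Marchf5 were lower at 1000 µM, and Fgr and Sesn1 higher. Acot1 at 24 h had log2 levels of 13.89, 13.72, 13.82, 13.83 and 13.95 at 1000 µM, against 14.24, 14.28, 14.24, 14.16 and 14.15 at 250 µM. That difference was -0.37 ± 0.05 over the exposed arrays (adjusted p = 0.002 by limma). The others differed at 24 h by -0.19 (Spc24), -0.11 (Ddit4), -0.08 (Marchf5, an E3 ligase of the mitochondrial outer membrane), 0.24 (Fgr, a Src-family kinase) and 0.30 (Sesn1), and did not pass there in either fit. Ddit4, Fgr, Marchf5 and Sesn1 were named after their values were seen.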

How the data were processed

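RNA was measured on Affymetrix rat expression arrays. The authors' deposited values are linear intensity, 1 signal for each probe set. MAS5 is named in the submitters' processing notes, without settings. The 2% trimmed mean was 1500.6 to 1500.7 on every array. Signals were taken as log2(signal + 1). Controls (57 of 31099 probe sets) and the 40% with the lowest mean over 30 arrays (limit 7.88, signal 234) were left out. Of 18625 probe sets, 14112 had 1 gene, and the brightest probe set of each gene gave 10528 genes. Of all probe sets, 436 named several genes and 9780 none.

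limma 3.58.1 in R 4.3.3 fitted 1 mean per group over 30 arrays (24 residual degrees of freedom, variance trend), with Benjamini-Hochberg adjustment over 10528 genes and a threshold of 0.05. Quality measures used exact permutation tests over arrays (scipy 1.17.1). The fit was tested on simulated data. The number of arrays limits the precision.

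Named were the called genes with arrays apart (the 12 largest and the 5 of smallest p per direction, and up to 4 per list), uncalled genes of smallest p filling each direction to 5 and given as values, up to 3 per direction from the change with time, and the tested members of a set of 21 genes, some of which are not reported here. Of the fillers, Cttnbp2nl differed by 0.51 (adjusted p = 0.0666 by limma) and Mrm3 by 0.39 (0.089). Members and 33 lists were chosen with earlier results of these data known. The remaining lists are given in the plot of list medians. Promoters are those of RefSeq, GRCr8.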

Additional observations from a re-analysis of the deposited data

Results flagged for a closer look

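Among 76 sets of 5 array values examined at 48 h (35 genes and 3 quality measures, both doses), 2 held an array far from the other 4, where chance gives about 1 in 20. Cab39 in 1 array at 1000 µM had a log2 level of 12.28, against 12.58 to 12.70 in the other 4. Isg15 in 1 array at 250 µM had a log2 level of 9.98, against 9.25 to 9.40 in the other 4.

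The dose difference changed between the times for Ints7 (48 h minus 24 h, 2.18 ± 0.37 on the log2 scale) and Isg15 (1.06 ± 0.19), by the interaction contrast of limma over all 30 arrays (adjusted p = 0.0171 and 0.024).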

How the results depend on the processing

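At 48 h, 7 genes passed over all 30 arrays. The count was 4 after centring array medians, 13 with every probe set tested, 409 with array weights, 3 over the 10 compared arrays and, as an alternative added after seeing the data, 52 over the 20 exposed arrays, while it stayed within 1.5 times under the other 7 settings that kept all compared arrays. Leaving out an array of either dose gave 1 to 20 genes. The count was 1 without replicate 2 of 1000 µM and without replicate 3 of 250 µM, 2 without replicate 5 of 250 µM, 20 without replicate 3 of 1000 µM and 15 without replicate 1 of 250 µM. Array weights at 48 h ran from 0.755 to 1.38 at 1000 µM, 0.808 to 1.32 at 250 µM and 0.324 to 1.66 in vehicle. At 24 h, 2 genes passed, and 0 without the variance trend (348 at an unadjusted p under 0.05), 4 with array weights, 4 over the 10 compared arrays and 5 over the exposed arrays, and 0 to 3 with an array left out. For the change with time, 2 genes passed, and 1 after centring, 1 after quantile normalization, 0 without the variance trend (741 at an unadjusted p under 0.05), 0 over the exposed arrays, and 0 to 3 with an array left out. The causes of these differences were not tested. Of the 7 changed genes, Rup2 passed under 21 of 21 alternatives, Mrpl27 under 18, Fabp1 and Ints7 under 16, Cdh2 under 13, Masp1 under 9 and Cab39 under 7, and none turned its direction. The labels give no replicate numbers, and those used here follow accession order. The titles carry array numbers, and each run of 6 holds 1 array of every group. With that run as a term 7 genes passed at 48 h, of which 5 were among the 7 above. Masp1 (adjusted p = 0.0588 by limma) and Cab39 (0.057) no longer passed, and Ccn2 did (0.0174). Signals near the low-signal limit, as in Ints7 at 250 µM, limit what can be read of dim genes.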
